A study of Homo sapiens with 6 samples.

Results

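The genes described here are the nuclear genes of the mitochondrial respiratory chain and ATP synthase, measured by RNA sequencing in K562, an established human line from chronic myeloid leukaemia. They were chosen by symbol: protein-coding genes whose name starts with NDUFA, NDUFB, NDUFC, NDUFS, NDUFV, UQCR, COX4, COX5, COX6, COX7, COX8 or ATP5, together with SDHA, SDHB, SDHC, SDHD and CYC1, in both deposited tables. The rule found 93 genes of the 30341 that the tables share. Of these, 37 code for complex I subunits, 4 for complex II, 9 for complex III, 18 for complex IV with its associated proteins (NDUFA4, its rarer relative NDUFA4L2 and the supercomplex factor COX7A2L among them) and 15 for complex V, the ATP synthase. The other members are the complex I assembly factors NDUFAF1, NDUFAF2, NDUFAF3 and NDUFAF4, 3 copies of subunit genes (ATP5EP2, ATP5L2 and COX6A1P2) and 3 genes that share the prefix but are not classed as subunits here (COX4NB, ATP5S and ATP5SL). These other members are kept apart from the subunits.

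The parental cells were untreated and grown in medium with 10% fetal calf serum. Parental_1 and Parental_2 are 2 libraries of what the labels give as 1 parental sample, and each deposited table holds one of them. The 48 h library is of parental cells exposed to 225 ng/ml doxorubicin, an anthracycline that poisons topoisomerase II, for 48 h. ATC1, ATC2, ATC3 and ATC4 are doxorubicin-tolerant cultures from separate wells: 480 wells of 10000 cells were given 100 ng/ml and then 225 ng/ml, 21 wells held surviving cells after 4 weeks, and 4 could be kept growing in 225 ng/ml. They are called clones below, although the labels do not say that each grew from 1 cell, and they were still under the drug, so tolerance and exposure cannot be told apart in them. With 1 sample for the parental state and 1 for the 48 h exposure, the tests on the clones measure the spread between the clones only, and the 48 h comparison has no test.

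The respiratory chain moves electrons from NADH (complex I) and succinate (complex II) through coenzyme Q, complex III and cytochrome c to oxygen at complex IV, and complex V uses the proton gradient that complexes I, III and IV build. Complex II is coded by nuclear genes alone. The others combine nuclear subunits with a few made inside mitochondria from mitochondrial DNA, so their assembly needs products of both genomes. Many of the nuclear genes have housekeeping promoters with sites for nuclear respiratory factor 1 (NRF1), for the ETS factor GABP and for YY1. K562 cells draw on glycolysis and also respire.

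Promoter sequence is shown first because these sites are the best-known feature that respiratory genes share and that the choice by symbol did not use. RefSeq promoter windows (GRCh38.p14, 250 bases before to 50 after the start) matched 73 of the 93 members. They were searched on both strands for GCGCANGCG (NRF1), CCGGAAG (ETS) and AAGATGGCG (YY1). No motif contains another, but the last 3 letters of the ETS motif can be the opening letters of the YY1 motif. The NRF1 letters were in 22 of the 73 windows (30.1%), against 11.0% of 15843 windows of protein-coding genes. The ETS letters were in 21 (28.8% against 14.2%) and the YY1 letters in 8 (11.0% against 2.74%). At least 1 of the 3 motifs was in 41 windows, which is 56.2% of the members against 24.7% of protein-coding genes.

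The stretches below lie upstream of the RefSeq start and outside every annotated exon, with the matched letters in capitals on the strand of the gene. NDUFB4 and NDUFA12, small accessory subunits of complex I, carry NRF1 letters, and NDUFB4 carries them at 2 places. NDUFAF4, an assembly factor and among the lowest members in the clones, and NDUFB7 and ATP5H carry the ETS letters, ATP5H on the opposite strand. COX8C, an isoform with hardly a read in these cells, carries the NRF1 letters on the opposite strand next to its start. The letters were thus also found in a member that is hardly expressed.
NDUFB4 (chr3:120596162-120596296, plus strand): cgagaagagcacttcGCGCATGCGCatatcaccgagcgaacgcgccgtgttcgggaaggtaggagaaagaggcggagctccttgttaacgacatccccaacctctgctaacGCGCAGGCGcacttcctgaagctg
NDUFA12 (chr12:95003790-95003828, minus strand): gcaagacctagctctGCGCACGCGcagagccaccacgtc
COX8C (chr14:93347153-93347181, plus strand): ccctcgtggctggggCGCCTGCGCaaacc
NDUFAF4 (chr6:96898017-96898053, minus strand): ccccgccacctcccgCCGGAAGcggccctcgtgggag
NDUFB7 (chr19:14572069-14572105, minus strand): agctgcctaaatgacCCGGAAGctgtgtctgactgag
ATP5H (chr17:75047049-75047085, minus strand): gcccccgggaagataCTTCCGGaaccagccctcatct

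The members' values are given here by motif. The median log2 fold change of the clones was -0.42 over the 21 tested members with the NRF1 letters and -0.37 over the 50 without, and it was -0.37 with and -0.37 without for the ETS letters and for the YY1 letters alike. At 48 h the median log2 ratio was -0.22 over 21 members with the NRF1 letters and -0.09 over 49 without, -0.05 with and -0.11 without the ETS letters, and -0.28 over 8 with the YY1 letters and -0.09 over 62 without. No test was made of these medians.

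Sequencing depth was 18420238 to 21361758 counts per library in the clones' table and 12537146 and 14146994 in the 48 h table. Members together took 1.24% of the counts of Parental_1 and 1.07%, 0.911%, 1.28% and 0.946% of those of the clones in order, so that ATC3 was the only clone above Parental_1. The K562 markers GATA1, TAL1 and KLF1 and 4 globin genes were present in all libraries. Of the 10 markers of other cell types PECAM1 was not matched by name and is not used here, MS4A1 had at most 1 count, and the summed level of the other markers was 101 CPM (counts relative to library size, scaled by the TMM method) in Parental_1, 110 to 140 CPM in the clones, 88.4 CPM in Parental_2 and 127 CPM at 48 h. LYZ, COL1A1, COL3A1 and CD14 were higher than Parental_1 in all 4 clones, and the part of these shifts in the values below was not tested. In bulk RNA, fewer cells of a type and less RNA per cell cannot be told apart.

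Respiratory genes were lower in 3 clones and near the parental level in the fourth. The 88 members with enough counts to test had a median log2 ratio to Parental_1 of -0.41 for ATC1, -0.64 for ATC2 and -0.50 for ATC4, but -0.02 for ATC3. The number below Parental_1 was 79 of 88 for ATC1, 82 for ATC2, all 88 for ATC4 and 46 for ATC3. Of the 18300 genes tested, the number below Parental_1 was 8761 for ATC1, 8454 for ATC2, 8816 for ATC4 and 8948 for ATC3. In all 4 clones 44 members were lower, against 24.4% of the 18300 genes tested, and 0 were higher, against 27.4%. Well-expressed genes in general leaned the same way: of the 7283 genes with a mean of at least 500 counts, 39.8% were lower in all 4 clones and 14.4% higher, with a median log2 fold change of -0.18 (all genes tested: 0.11). The 77 members of that level had a median of -0.37, and 39 of them (50.6%) were lower in all 4 clones and 0 higher. Scaling to library totals in place of TMM moves the median over all genes of the clones' mean log2 ratio from 0.05 to 0.22. With it, 36 of 88 members were lower in all 4 clones and 2 higher, against 3014 and 6276 of the 18300 genes. The medians of the complexes kept their order, from -0.49 (complex II) to -0.11 (complex IV), against -0.67 and -0.29 with TMM. The other 5 members (ATP5L2, COX6A1P2, COX6A2, COX7A1 and COX8C) had too few counts.

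No member passed the test between the clones and Parental_1. The quasi-likelihood test of edgeR, adjusted by Benjamini-Hochberg, called 0 members and 0 of the 18300 genes (0%), and DESeq2, tried as an alternative, called 576 genes of which 0 were members. At an unadjusted p under 0.05 there were 5 members on the lower side (NDUFAF4, NDUFAF2, NDUFS3, SDHD and ATP5SL), against 4.28% of all genes, and 0 on the higher side, against 7.5%. The 5 make up 5.68% of the members tested, a share near that of all genes. Leaving out 1 clone moved this count between 0 (without ATC1, all genes: 413 of 17781) and 17 of 88 (without ATC3, all genes: 878 of 17983).

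**Figure D1:**
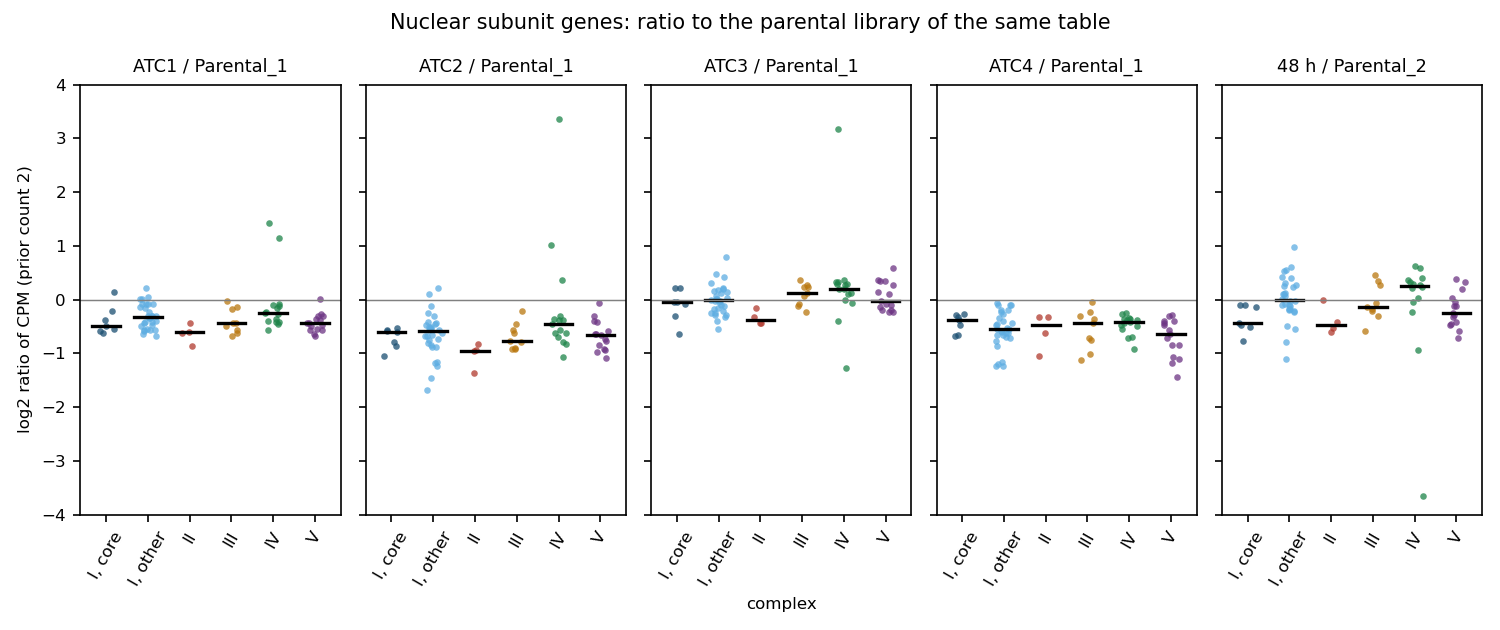
Log2 ratio of each nuclear subunit gene to the parental library of its own table (y axis), by complex (x axis), for the 4 clones (genes tested) and for the 48 h library (genes whose higher library holds 20 counts or more). Each point is 1 gene and each bar the median of a complex; the medians lie below 0 for all complexes in ATC1, ATC2 and ATC4, while in ATC3 the complex II median is -0.38 and that of complex IV is 0.21. The outlying complex IV point at 3.37 in ATC2 and -3.66 at 48 h is NDUFA4L2, which has few counts.

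Complex I takes electrons from NADH, and its 7 nuclear core subunits, which hold the flavin and the iron-sulfur clusters, were lower in the clones with a median log2 fold change of -0.41. Of the 7, 5 were below Parental_1 and 4 were below Parental_2 in all 4 clones. NDUFS3 (chr11:47565336-47584562 on GRCh38), an early-assembling core subunit, stood at 133 CPM in Parental_1 and at 88.0, 72.7, 85.4 and 82.7 CPM in ATC1 to ATC4. All 4 clones lay well below the parental library and close to each other, with a mean of 82.2 ± 6.67 CPM (SD, n = 4). Its log2 fold change was -0.69 ± 0.25 (SE) with an adjusted p of 0.401. Exons of NDUFS3 overlap those of neighbouring genes, KBTBD4 and PTPMT1 among them, and how the authors' counting treated such reads, or used strand, is not stated in the labels or tables. NDUFS1, the largest core subunit, was at 144 CPM in Parental_1 and at 103, 82.8, 117 and 118 CPM in the clones. NDUFV1, which binds NADH, was at 320 CPM in Parental_1 and 245, 155, 310 and 254 CPM in the clones, so that ATC3 differed little from the parental value.

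The 30 other complex I subunits, which surround the core, had a median of -0.32, and 15 were below Parental_1 in all 4 clones. Against Parental_2, 9 of the 30 were lower in all 4 clones (all genes: 4834 of 17925). NDUFB2, NDUFS6 and NDUFS5 had the lowest log2 fold changes against Parental_1. NDUFB2 was at 101 CPM in Parental_1 and at 63.1, 44.3, 80.8 and 42.8 CPM in the clones (-0.81 ± 0.38, adjusted p = 0.447). NDUFS6, a zinc-binding subunit, was at 136 CPM in Parental_1 and at 92.5, 42.7, 93.9 and 86.0 CPM in the clones (-0.79 ± 0.42, adjusted p = 0.483). Its ATC2 value was less than the lowest of the other clones by a wide gap. NDUFS5 was at 260 CPM in Parental_1 and 175, 110, 217 and 111 CPM in the clones (-0.76 ± 0.42, adjusted p = 0.491), with ATC2 and ATC4 lowest. With Parental_2 in its place in the fit, the log2 fold changes were -0.12 for NDUFB2, -0.25 for NDUFS6 and 0.02 for NDUFS5, and the clones lay on both sides of that library for NDUFB2 and NDUFS5. NDUFB9, at 186 CPM in Parental_1 and 194, 201, 250 and 175 CPM in the clones, had the highest log2 fold change of the complex I subunits, 0.13 ± 0.31.

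The 4 NDUFAF assembly factors caught by the symbol rule, which are not part of the finished enzyme, were lower than Parental_1 in all 4 clones. NDUFAF4 was at 51.3 CPM in Parental_1 and at 30.5, 23.7, 35.2 and 24.4 CPM in the clones (-0.85 ± 0.32, adjusted p = 0.406). NDUFAF2, a paralog of the accessory subunit NDUFA12, was at 36.3 CPM in Parental_1 and at 17.0, 18.0, 24.7 and 21.4 CPM in the clones (-0.84 ± 0.33, adjusted p = 0.407). For both genes every clone was under the parental value, ATC3 being the nearest. NDUFAF1 (-0.32 ± 0.36) and NDUFAF3 (-0.39 ± 0.33) differed less. NDUFAF2 and NDUFAF4 were also the lowest of these 4 at 48 h: NDUFAF2 was at 40.4 CPM in Parental_2 and 11.2 CPM at 48 h, a ratio of 0.278 (95% interval from the counts 0.232 to 0.332), and NDUFAF4 was at 48.8 and 15.4 CPM, a ratio of 0.315 (0.270 to 0.368). NDUFAF3 was at 26.8 CPM in both. These intervals, like all those given for 48 h, cover counting error only.

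Complex II links the tricarboxylic acid cycle to the chain by oxidising succinate, and its 4 genes had the lowest median of the complexes in the fit over the 4 clones, a log2 fold change of -0.63, with all 4 genes below Parental_1 in all 4 clones. SDHA, the flavoprotein that binds succinate, was at 218 CPM in Parental_1 and at 161, 84.0, 160 and 173 CPM in the clones, ATC2 standing far below the others. SDHB, the iron-sulfur subunit, was at 196 CPM in Parental_1 and at 130, 110, 157 and 94.9 CPM in the clones (-0.67 ± 0.32, adjusted p = 0.450). SDHC, a membrane anchor, was at 103 CPM in Parental_1 and at 67.4, 53.0, 92.8 and 82.6 CPM in the clones. SDHD, the other anchor (chr11:112086773-112120013), was at 80.6 CPM in Parental_1 and at 44.1, 41.8, 59.5 and 52.1 CPM in the clones, a mean of 49.4 ± 8.09 CPM (SD, n = 4). Its log2 fold change was -0.71 ± 0.29 with an adjusted p of 0.410, between 0.0767 (both parental libraries in the fit) and 0.616 over the alternatives. SDHD shares exon sequence with its neighbour TIMM8B on the opposite strand. Against Parental_2 in place of Parental_1, the complex II medians were -0.46, -1.10, -0.25 and -0.54 in ATC1 to ATC4, and all 4 genes were again lower in all 4 clones. By single clone the complex II median was not the lowest in ATC4, at -0.48 against Parental_1, where it was -0.64 for complex V and -0.55 for the complex I subunits outside the core.

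At 48 h, SDHA (213 to 148 CPM, ratio 0.693, 0.654 to 0.734), SDHB (174 to 114 CPM, 0.657, 0.616 to 0.701) and SDHD (107 to 80.6 CPM, 0.751, 0.693 to 0.813) were below Parental_2. SDHC was at 98.6 CPM in Parental_2 and 97.9 CPM at 48 h, and its interval includes 1 (0.918 to 1.07). On a scale joint to both tables, the 48 h library was 0.68 times Parental_1 for SDHA and 0.58 times for SDHB. It was 0.95 times Parental_1 for SDHC and 0.997 times for SDHD, so that the SDHD difference was seen only against Parental_2. The summed level of the complex was 597 CPM in Parental_1, 391 ± 74.7 CPM (SD, n = 4) in the clones, 593 CPM in Parental_2 and 440 CPM at 48 h, and in no clone did it reach the parental level.

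**Figure D2:**
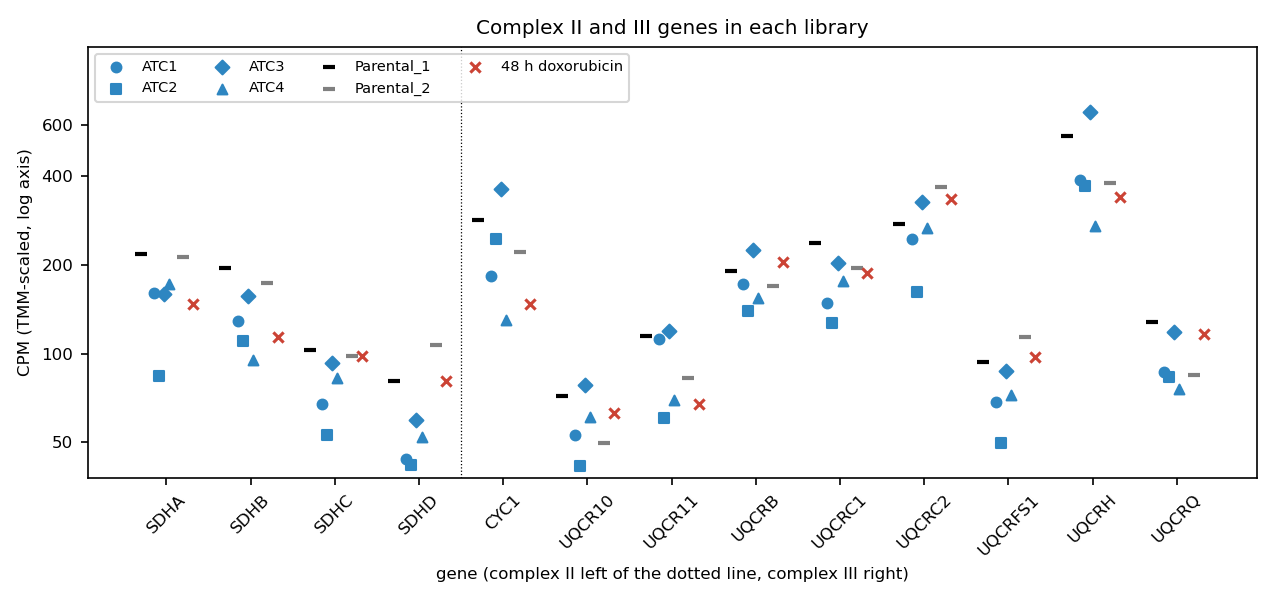
CPM (TMM-scaled within each table, log axis) of the complex II and complex III genes (x axis) in each library: dashes for the parental libraries, filled symbols for the clones and a cross for 48 h of doxorubicin. All 4 complex II genes lie below Parental_1 in all 4 clones, while 6 of the 9 complex III genes have a clone above Parental_1.

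Complex III passes electrons from coenzyme Q to cytochrome c. Its 9 genes had a median log2 fold change of -0.34, with 3 of them (UQCRC1, UQCRFS1 and UQCRQ) below Parental_1 in all 4 clones, and the medians by clone were -0.44, -0.77, 0.13 and -0.43. UQCRC1, a core protein, was at 238 CPM in Parental_1 and at 149, 127, 203 and 176 CPM in the clones (-0.54 ± 0.32, adjusted p = 0.516). UQCRFS1, the Rieske iron-sulfur protein, was at 93.4 CPM in Parental_1 and at 68.8, 49.6, 87.7 and 72.2 CPM in the clones. CYC1, the cytochrome c1 gene, differed between the clones: it was at 284 CPM in Parental_1, at 183 and 130 CPM in ATC1 and ATC4, at 245 CPM in ATC2 and at 363 CPM in ATC3. UQCRH, the hinge protein, was at 548 CPM in Parental_1 and at 389, 372, 660 and 272 CPM in the clones. Both had ATC3 above and ATC4 farthest below the parental library, and neither passed the test (-0.30 ± 0.52 and -0.37 ± 0.47). Against Parental_2 the complex III medians were 0.06, -0.27, 0.51 and -0.21 in ATC1 to ATC4, and 2 of the 9 genes were lower in all 4 clones.

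The remaining complex III genes, UQCRQ, UQCR10, UQCR11, UQCRB and UQCRC2, had log2 fold changes from -0.50 (UQCRQ) to -0.14 (UQCRB), and that of UQCRQ was 0.13 with Parental_2 as the reference. At 48 h no complex III gene was at least 1.5-fold from Parental_2. CYC1 was lowest, at 221 CPM in Parental_2 and 148 CPM at 48 h (ratio 0.669, 0.632 to 0.708), and UQCRQ highest, at 84.9 and 117 CPM (1.38, 1.27 to 1.49). The choice of parental library touches these values too. On the joint scale the 48 h library was 0.52 times Parental_1 for CYC1, 0.59 times for UQCR11 and 0.62 times for UQCRH, each at least 1.5-fold lower. It was 0.91 times Parental_1 for UQCRQ. Against Parental_1, 6 of the 9 genes were lower at 48 h (all genes: 7603 of 14236), with a median of -0.19.

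Complex IV reduces oxygen. Its nuclear genes were the least lowered group in the clones, with a median log2 fold change of -0.24 over the 15 tested and medians of -0.24, -0.45, 0.21 and -0.42 by clone. Only 3 of the 15 (COX5A, COX5B and the scarce COX6B2) were below Parental_1 in all 4 clones. COX5B was at 149 CPM in Parental_1 and at 112, 96.9, 147 and 102 CPM in the clones (-0.38 ± 0.31, adjusted p = 0.633). COX5A was at 159 CPM in Parental_1 and at 132, 107, 152 and 114 CPM in the clones. COX4I1, the largest nuclear subunit, was at 415 CPM in Parental_1 and at 322, 268, 505 and 305 CPM in the clones, and COX6B1, which faces the intermembrane space, at 251 CPM in Parental_1 and at 170, 120, 289 and 155 CPM in the clones. In both, ATC3 was above Parental_1 and the other clones below it. The log2 ratios to Parental_2 in ATC1 to ATC4 were 0.02, -0.26, 0.67 and -0.05 for COX4I1. For COX6B1 they were -0.004, -0.52, 0.76 and -0.13. Against Parental_2 the complex IV medians were -0.14, -0.35, 0.38 and -0.14, and 3 of the 15 genes were lower in all 4 clones (all genes: 4834 of 17925). COX4I1 overlaps COX4NB on the opposite strand, and strand use in counting is not known here.

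At 48 h complex IV lay on the other side of its parental library from complexes II and V. Of its 14 counted genes 10 were higher than in Parental_2 (all genes: 6293 of 13865), with a median log2 ratio of 0.25. COX6B1 was at 174 CPM in Parental_2 and 269 CPM at 48 h (ratio 1.54, 1.46 to 1.63), and NDUFA4, a subunit first assigned to complex I, at 164 and 245 CPM (1.498, 1.42 to 1.58). COX7A2L, which joins complexes III and IV into supercomplexes, was the exception, at 169 CPM in Parental_2 and 88.4 CPM at 48 h (0.523, 0.488 to 0.561). In the clones COX7A2L was at 93.3, 131, 124 and 83.8 CPM, on both sides of the 101 CPM of Parental_1, whereas all 4 clones were below Parental_2 (log2 fold change -0.61). The choice of parental library touches the 48 h values: on a scale joint to both tables, the 48 h library was 1.07 times Parental_1 for COX6B1, 1.16 times for NDUFA4 and 0.87 times for COX7A2L. With Parental_1 in place of Parental_2 the complex IV median at 48 h was 0.05, with 6 of 13 genes lower (all genes: 7603 of 14236).

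Several subunits of complex IV have isoforms that belong to other tissues, and these were nearly absent. COX6A2, a heart and muscle isoform, had 1 count in Parental_1, 0 in ATC1 to ATC3, 1 in ATC4, 0 in Parental_2 and 1 at 48 h, while its counterpart COX6A1 stood at 47.7 CPM in Parental_1 and at 34.6, 36.6, 51.4 and 34.1 CPM in the clones. COX8C, known from testis, had 0 counts in Parental_1, against 136 CPM for COX8A. COX7A1, the muscle isoform, had 8 counts in Parental_1 and 5, 5, 8 and 5 in the clones, against 124 CPM in Parental_1 for COX7A2. COX6B2 and COX7B2, both known from testis, had 26 and 7 counts in Parental_1, and COX7B2 had 26 and 17 in ATC1 and ATC2 and 5 and 6 in ATC3 and ATC4. COX4I2 was not matched and is not used here. No isoform pair shares a run of over 26 identical transcript bases (COX7B with COX7B2), which a longer read would cross.

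NDUFA4L2, a hypoxia-inducible relative of NDUFA4, varied more between libraries than any other tested member. The clones had 34, 149, 128 and 7 counts in order, Parental_1 had 12, Parental_2 had 39 and the 48 h library had 2. ATC2 and ATC3 were at 7.47 and 6.53 CPM against 0.635 CPM in Parental_1, whereas ATC4 was below it at 0.347 CPM, and the log2 fold change of 2.63 ± 1.67 had an adjusted p of 0.540. Parental_2 held 3.37 CPM, so that the parental libraries themselves lay 2.16 apart on the log2 scale, more than the gap between ATC1 and Parental_1 (1.14). The 48 h ratio to Parental_2 was 0.0387 (0.00453 to 0.149). NDUFA4 itself stood at 211 CPM in Parental_1 and at 189, 154, 273 and 166 CPM in the clones.

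Complex V makes ATP, and its 15 genes had a median log2 fold change of -0.37 in the clones, with 8 below Parental_1 in all 4. Against Parental_2, 4 of the 15 were lower in all 4 clones (all genes: 4834 of 17925). The medians were then -0.21, -0.53, 0.44 and -0.39 in ATC1 to ATC4. ATP5B, now ATP5F1B, codes for the catalytic beta subunit and had the highest level per transcript length of all members (1035 CPM per kilobase in Parental_1). It was at 1903 CPM in Parental_1 and at 1285, 967, 1668 and 884 CPM in the clones (-0.66 ± 0.41, adjusted p = 0.531). ATP5A1, the alpha subunit, was at 567 CPM in Parental_1 and at 402, 295, 481 and 465 CPM in the clones. The summed level of the complex was 5439 CPM in Parental_1 and 3837, 3140, 5265 and 3254 CPM in ATC1 to ATC4, so that ATC3 kept 96.8% of the parental sum and ATC2 57.7%.

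The membrane rotor is a ring of identical c subunits that ATP5G1, ATP5G2 and ATP5G3 all code for. ATP5G3 was the most abundant of them, at 794 CPM in Parental_1 and 509, 375, 675 and 487 CPM in the clones (-0.63 ± 0.36, adjusted p = 0.505). ATP5G1 was at 89.6 CPM in Parental_1 and at 55.6, 49.8, 84.2 and 50.05 CPM in the clones, with ATC3 apart from the other 3. ATP5G2 was at 311 CPM in Parental_1 and at 223, 234, 394 and 148 CPM in the clones, with ATC3 above the parental library. Their transcripts share no identical run longer than 17 bases. ATP5D, the delta subunit of the central stalk, was at 89.0 CPM in Parental_1 and at 89.0, 56.2, 98.2 and 32.6 CPM in the clones, ATC4 being the lowest by far.

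At 48 h the median log2 ratio of the complex V genes was -0.26. ATP5D was at 73.8 CPM in Parental_2 and 44.7 CPM at 48 h (ratio 0.605, 0.547 to 0.670), ATP5G2 at 269 and 180 CPM (0.670, 0.636 to 0.705), and ATP5B at 2080 and 1559 CPM (0.750, 0.736 to 0.763). The highest ratios were those of ATP5L, a subunit of the peripheral membrane part, at 124 and 161 CPM (1.30, 1.22 to 1.39), and of the stator subunit ATP5H, at 118 and 148 CPM (1.25, 1.17 to 1.34).

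**Figure D3:**
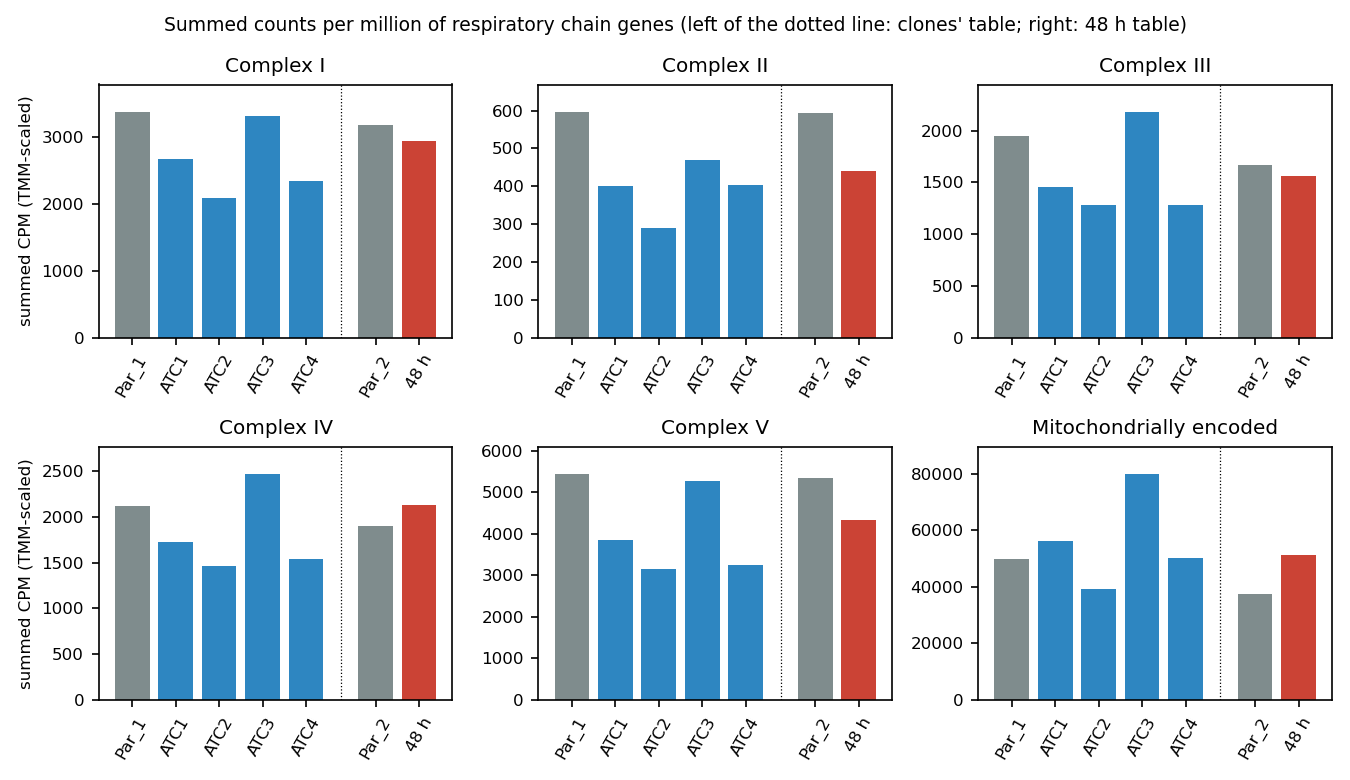
Summed CPM (y axis, from 0) of the nuclear subunits of each complex and of the 13 mitochondrially encoded subunits in each library (x axis); grey bars are parental libraries, blue bars the clones and red bars 48 h of doxorubicin, each table scaled on its own. The complex II sum is below the parental bar in all 4 clones, and ATC3 exceeds Parental_1 for complexes III and IV and for the mitochondrially encoded subunits.

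Over all complexes, most members were within 1.5-fold of their parental library at 48 h. The 86 members that reach 20 counts in one of the pair had a median log2 ratio of -0.10 (all genes: -0.09). Of these members 53 were lower and 33 higher (all genes: 7572 and 6293 of 13865). At least 1.5-fold lower were 9 members (10.5%), against 24% of the 13865 genes counted, and at least 1.5-fold higher were 3 (3.49%), against 21.8%. Scaled to library totals, which moves the median of all genes to 0.14, 5 members were lower by that margin and 12 higher, against 2183 and 4037 of the 13865 genes. The medians were then -0.24 for complex II, -0.03 for complex V, 0.09 for complex III and 0.48 for complex IV, so that complex III changed sign while complex II remained lowest and complex IV highest. Among genes with a mean of at least 500 counts, 28.5% were at least 1.5-fold lower and 9.95% higher. The 9 were NDUFAF2, NDUFAF4, NDUFA4L2, NDUFS4, COX7A2L, NDUFA5, NDUFS1, ATP5D and SDHB, and the 3 were NDUFA2, COX6B1 and NDUFA13. Just short of 1.5-fold lay NDUFA4 on the higher side (log2 ratio 0.58) and CYC1 and ATP5G2 on the lower side (both -0.58).

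Complex I was split at 48 h. All 7 core genes were below Parental_2 (all genes: 7572 of 13865), with a median log2 ratio of -0.43. The 30 other subunits had a median of -0.01. With library totals 4 of the 7 were below Parental_2 (all genes: 5837 of 13865), with a median of -0.20. The median of the others was then 0.22. NDUFS1 was at 180 CPM in Parental_2 and 105 CPM at 48 h (ratio 0.584, 0.547 to 0.624). NDUFS4, an accessory subunit needed for a stable NADH-binding module, was at 36.4 and 16.8 CPM (0.462, 0.394 to 0.541). In the clones NDUFS4 was at 21.8, 31.3, 31.3 and 25.1 CPM, on both sides of the 27.0 CPM of Parental_1, but all 4 were below Parental_2 (log2 fold change -0.38). NDUFA5 was at 233 and 134 CPM (0.575, 0.542 to 0.609). NDUFA2 had the largest ratio upward of all members, 35.3 CPM in Parental_2 and 69.9 CPM at 48 h (1.98, 1.77 to 2.23), and NDUFA13 was at 23.4 and 35.5 CPM (1.52, 1.31 to 1.76). On the joint scale the 48 h library was 1.44 times Parental_1 for NDUFA2 and 0.99 times for NDUFA13, so that the NDUFA13 difference was seen only against Parental_2. With Parental_1 as the reference, the 7 core genes were again all lower at 48 h (all genes: 7603 of 14236), with a median of -0.27. The other subunits then had a median of -0.12.

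Transcript length was a feature that went along with the 48 h values. Across 78 subunit genes, Spearman's rho between transcript length and the log2 ratio at 48 h was -0.38, so that shorter transcripts had the higher ratios, and across 11863 protein-coding genes it was -0.10. Between the parental libraries (Parental_2 over Parental_1) it was 0.36 across 78 subunits and 0.10 across 11340 protein-coding genes, and between the clones and Parental_1 -0.12 across 79 subunits. These are descriptions across genes of the same libraries, which are not independent replicates, and the 48 h value and the parental one share Parental_2.

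The parental libraries differed from each other in these genes by an amount that bears on all of the values above. Of 86 members, 62 were lower in Parental_2 than in Parental_1 (all genes: 6870 of 13324), with a median log2 ratio of -0.23 (all genes: -0.02). The medians by complex were -0.12 for complex II, -0.20 for complex I, -0.28 for complex V, -0.30 for complex IV and -0.43 for complex III. Against Parental_2 the member medians were -0.19, -0.44, 0.23 and -0.28 in ATC1 to ATC4, and 30 of 88 members were lower in all 4 clones (all genes: 4834 of 17925). ATC3 was then above the parental library for complexes III (0.51), IV (0.38) and V (0.44) and below it for complex II (-0.25).

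The ratio of nuclear to mitochondrially encoded subunit counts within a library does not depend on scaling. Nuclear subunits had 0.270 counts per mitochondrially encoded count in Parental_1 and 0.339 in Parental_2, against 0.179, 0.211, 0.171 and 0.175 in the clones in order and 0.222 at 48 h. All 4 clones and the 48 h library lay under both parental libraries. The same held within complex I (0.158 and 0.174 in the parental libraries, 0.105 to 0.131 in the clones, 0.137 at 48 h), within complex III (0.520 and 0.698 against 0.245 to 0.324, and 0.493), within complex IV (0.103 and 0.137 against 0.0673 to 0.0894, and 0.0931) and within complex V (1.26 and 1.84 against 0.814 to 1.10, and 1.15). The libraries were made by poly(A) selection per the labels' protocols, and mitochondrial transcripts carry short tails, so the ratio is not one of molecules in the cell. Mitochondrially encoded subunits differed between clones, from a median log2 ratio of -0.44 in ATC2 to 0.63 in ATC3, and 2 of the 13 (MT-ND5 and MT-ND6) were below Parental_1 in all 4 clones. All 13 were lower in Parental_2 than in Parental_1, with a median log2 ratio of -0.32. Their 48 h median was 0.30 against Parental_2, but 0.00 against Parental_1, with 6 of the 13 lower.

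Other genes of the same organelle were read from lists of assembly factors, electron carriers with coenzyme Q synthesis, the tricarboxylic acid cycle and regulators. None of their genes passed edgeR's adjusted threshold. The shares to read their counts against are 24.4% of all genes lower in all 4 clones and 4.28% with an unadjusted p under 0.05 on the lower side, or 39.8% and 7.95% of the genes with a mean of at least 500 counts. Of 44 assembly factors outside the symbol rule, 24 were lower than Parental_1 in all 4 clones (median log2 fold change -0.42), and 6 had an unadjusted p under 0.05 on the lower side and 0 on the higher side, COA7 (-0.91 ± 0.28) and SDHAF3 (-0.85 ± 0.32), which serves complex II, among them. SDHAF3 was below Parental_2 as well in all 4 clones, but COA7 was below it in 1 clone. Of 17 electron carrier and coenzyme Q genes, 11 were lower in all 4 clones (median -0.32, 1 under p 0.05 on the lower side, PDSS1). Of 13 tricarboxylic acid cycle genes, 7 were lower in all 4 (median -0.32, 4 under p 0.05 on the lower side). FH, the fumarase next to complex II in the cycle, was at 279 CPM in Parental_1 and at 104, 96.7, 162 and 139 CPM in the clones (-1.15 ± 0.33), and at 315 CPM in Parental_2 and 156 CPM at 48 h.

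Among the regulators 12 of 16 were lower than Parental_1 in all 4 clones and 8 of 16 lower than Parental_2, and 2 were higher than Parental_1 in all 4 (ESRRA, and PPARGC1A with 0 counts in Parental_1 and 14, 5, 2 and 3 in the clones). They had a median of -0.46 in the clones and -0.62 at 48 h, and 5 had an unadjusted p under 0.05 on the lower side and 0 on the higher. TFAM, which packages and transcribes mitochondrial DNA, was at 244 CPM in Parental_1 and at 129, 102, 115 and 167 CPM in the clones (-0.92 ± 0.32), and at 256 CPM in Parental_2 and 114 CPM at 48 h. TFB2M, which opens mitochondrial promoters, was at 107 CPM in Parental_1 and at 47.0, 53.6, 50.3 and 59.0 CPM in the clones (-1.02 ± 0.25). NRF1 was at 45.04 CPM in Parental_1 and at 29.04, 21.2, 28.8 and 29.1 CPM in the clones (-0.74 ± 0.30). All 4 clones were below Parental_2 too for TFAM and TFB2M, but for NRF1 only 1 clone was, the mean log2 ratio to that library being -0.10. The median of the regulators was -0.56 in ATC3 and -0.54, -0.62 and -0.37 in ATC1, ATC2 and ATC4, and that of all nuclear subunits was 0.00 in ATC3, with the complexes between -0.38 and 0.21.

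**Figure D4:**
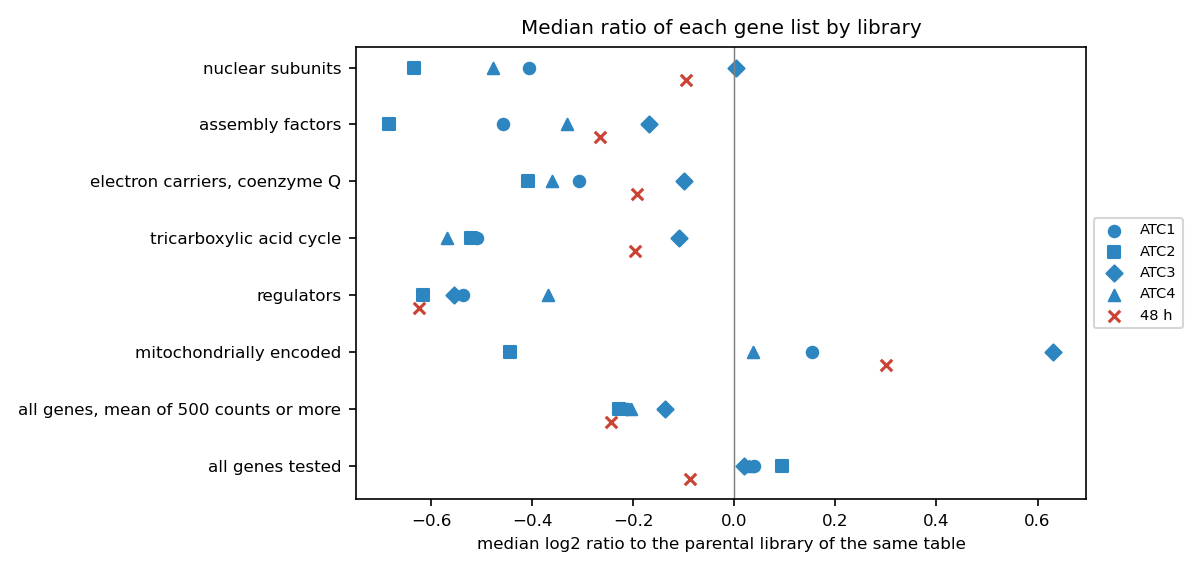
Median log2 ratio to the parental library of the same table (x axis) for each gene list (rows), with 1 symbol per clone and a cross for 48 h of doxorubicin. The nuclear subunits lie left of all genes in ATC1, ATC2 and ATC4 and near 0 in ATC3, and the regulators lie left of 0 in every library shown. The mitochondrially encoded subunits lie right of 0 in ATC1, ATC3 and at 48 h, and near 0 in ATC4 (0.04). With Parental_1 as the reference, which is not drawn for 48 h, their 48 h median was 0.00.

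Of the members that are no subunits, ATP5SL, now DMAC2 and a factor for the membrane arm of complex I, was at 69.2 CPM in Parental_1 and at 40.0, 32.7, 45.6 and 40.9 CPM in the clones (-0.80 ± 0.28, adjusted p = 0.394, the smallest of all members), but it was at 40.5 CPM in Parental_2, a value within the range of the clones. COX4NB, now EMC8 and part of an endoplasmic reticulum complex, was at 55.6 CPM in Parental_1 and at 36.5, 31.0, 42.0 and 38.7 CPM in the clones, beside 39.1 CPM in Parental_2. ATP5S was at 7.62 CPM in Parental_1 and at 6.44 to 9.03 CPM in the clones. The copies ATP5EP2, ATP5L2 and COX6A1P2 were all under 1 CPM. Exons of 49 of the 93 members overlap another annotated gene, 37 of them on the opposite strand. Annotated pseudogenes named after members held 0.0269% to 0.0769% as many counts as the members themselves.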

How the data were processed

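Poly(A) libraries were made with a stranded TruSeq kit from TRIzol RNA, per the labels' protocols. The authors deposited integer read counts for each gene with 1 added to every value, and left a pair missing where neither library has a read; here the 1 was taken off and such pairs became 0. Deposited beside them are the authors' log2 fold changes of each pair, scaled by the totals of the pair, which were not used. The 4 copies of Parental_1 in the clones' table were identical. The aligner, the counting program and its use of strand are not stated in the labels or tables. Per the submitters' processing notes the genome build is GRCh38, but only 4 of 93 member starts in the tables lay within 10 bases of GENCODE 29, so positions and transcript lengths were taken from GENCODE 29 by Ensembl ID (90 members have a length). CPM were scaled by TMM within each table, and ratios across the tables by TMM over the clones with Parental_2, or over all libraries jointly for the parental libraries and for 48 h against Parental_1.

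Parental_1 was set against the 4 clones with edgeR 4.0.16 in R 4.3.3 (quasi-likelihood, filterByExpr, Benjamini-Hochberg over 18300 genes, threshold 0.05, 3 residual degrees of freedom). The fit was tested on simulated data with less spread than these libraries and larger changes than most members had. Its power for small changes was not tested. The SE after ± was worked back as the size of the log2 fold change over the root of its F statistic. A prior count of 2 entered the log2 ratios of single libraries. At 48 h, with 1 library on each side, genes reaching 20 counts in either library were given with exact conditional binomial 95% intervals. DESeq2 1.42.0, limma-voom (limma 3.58.1), library totals, median-of-ratios scaling, no filter, the other parental library, both parental libraries, the 48 h library added to the fit, and leaving out each clone were alternatives. Members and lists were chosen with earlier results of these data known. Genes named are those of complexes II and III, up to 3 each way in the clones and 2 each way at 48 h for the other classes, tissue isoforms, the c-ring genes, and the most variable, highest and lowest per length; all other genes named, such as NDUFS1, NDUFV1, ATP5A1, NDUFB9 and those of the other lists, were chosen after their values were seen.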

Additional observations from a re-analysis of the deposited data

Results flagged for a closer look

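The 4 clones were examined in 55 sets (48 named genes and 7 complex sums). In 8 sets the clone farthest from the others was separated by more than Dixon's 95% critical value for 4 samples. Chance flags about 5 in 100 independent sets. The 8 cannot be set against that rate, because the sets share the same clones and some genes were named by their values in them. In 5 of the 8 sets ATC3 stood above the other clones: ATP5G1 at 84.2 CPM, ATP5H at 195 CPM, COX6A1 at 51.4 CPM, COX8A at 171 CPM and COX7A1 at 0.408 CPM, the last from 8 counts. In another 2, ATC2 stood below the others, with NDUFS6 at 42.7 CPM and SDHA at 84.0 CPM. COX6A2 in ATC4, at 0.0496 CPM, is 1 count against 0 in the other clones.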

How the results depend on the processing

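Over all genes 0 were called by edgeR, against 576 by DESeq2, 19 without the filter on low counts, 345 with both parental libraries in the fit, and 0 to 84 when a clone was left out (84 without ATC4); 0 members were called under any of these settings. The 5 members with an unadjusted p under 0.05 on the lower side became 1 with library totals, 11 with both parental libraries and 0 to 17 when a clone was left out (0 without ATC1, 17 without ATC3, 2 without ATC2 or ATC4), and the 0 on the higher side became 0 to 1. The lower side of all genes held 784 of 18300, 364 with library totals and 1673 of 16755 with both parental libraries. It held 413 of 17781 without ATC1 and 878 of 17983 without ATC3. Library totals move the median of all genes from 0.11 to 0.29 in the clones and from -0.09 to 0.14 at 48 h. The 44 members lower in all clones became 44 to 76 when a clone was left out (76 without ATC3, all genes: 5333 of 17983), and 38 with subunits only, an alternative chosen after seeing the data, as were the level of 500 counts and the medians by complex against the other parental library. The member median of the clones' mean log2 ratios, -0.40, was -0.17 against Parental_2 and kept its sign under every alternative run for it. At 48 h, the 9 members at least 1.5-fold lower became 5 with library totals, 20 against Parental_1 and 4 at 2-fold, and the 3 higher became 12, 1 and 0. For all genes in these 3 settings the lower counts were 2183 of 13865, 3387 of 14236 and 1570 of 13865, and the higher counts 4037, 3441 and 1878. The 48 h member median of -0.10 was 0.13 with library totals, a reversal that the shift of all genes accompanies. The cause of the other differences was not tested. No paired analysis was possible because the groups compared share fewer than 2 replicate numbers. With 1 parental sample, differences between clones and parental cells smaller than the gap between the parental libraries are not resolved.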

Other observations

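Members on chromosome 7 (NDUFB2, NDUFA5, ATP5J2 and NDUFA4) had a median log2 ratio of -1.19 in ATC4, against -0.50 over all members in that clone, and of -0.49, -0.60 and -0.21 in ATC1, ATC2 and ATC3. ATP5J2 was at 145 CPM in Parental_1 and at 98.6, 139, 136 and 63.7 CPM in the clones. On the joint scale it was at 147 CPM in Parental_1 and 74.5 CPM in Parental_2. Its log2 ratios to Parental_2 were 0.38, 0.86, 0.85 and -0.23 in ATC1 to ATC4. The 4 members on chromosome 8 had medians of -0.11, -0.26, 0.34 and -0.34 in ATC1 to ATC4, above the medians of all members (-0.41, -0.64, -0.02 and -0.50) in each clone. The 11 tested members on chromosome 19 were near the parental level in ATC1 (-0.08) and lower in ATC2 (-0.68) and ATC4 (-0.62). Against Parental_2 the chromosome 7 median in ATC4 was -0.39, against -0.28 over all members. The chromosome 19 medians were then 0.46, -0.37 and -0.06 in ATC1, ATC2 and ATC4. Chromosome groups were looked at after the values were seen, hold few genes and were not tested.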
